A study of Rattus norvegicus with 6 samples.

Results

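The genes described here are 34 genes of proliferation and DNA replication, taken by name from a list of cell cycle genes, and all 34 were found among the 18696 genes for which group averages were deposited. These genes and the other lists used below were chosen with earlier results of these data known. Their shares set beside those of all genes are therefore descriptions and not independent tests. The tissue was the dorsal root ganglion, where the cell bodies of sensory neurons lie wrapped in glia next to the spinal cord, and all rats were of the SD strain. In the 3 libraries of the SNI (spared nerve injury) group, 2 branches of the sciatic nerve, the common peroneal and the tibial, had been ligated and cut while the sural branch was kept. In the 3 libraries of the sham group, the sciatic nerve and its branches had been exposed and the skin closed. The labels give no age, sex, time after surgery, side or spinal level, and do not say whether each library is 1 animal or a pool. Any p-value therefore measures only how far these samples differ among themselves, and that spread may be technical.

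Cells copy their DNA once per division. The MCM helicase is loaded on origins in G1 and unwinds the DNA in S phase, PCNA clamps the polymerases to the template, and ribonucleotide reductase and thymidylate synthase supply the building blocks. Cyclin-dependent kinases drive each step, and in mitosis the Aurora and Polo kinases, the spindle checkpoint and the anaphase ubiquitin ligase bring the chromosomes apart. Sensory neurons of the adult ganglion do not divide, while its glia, its macrophages and cells arriving with the blood can.

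Expression was given as TPM, a share of all transcripts in a library after correction for length. For 1 of the 34 genes, Aurkb, TPM was given for each library. The other 33 had the authors' average of each group alone, with no SD, so that no test between groups was possible for them. The authors' average read count was given too, and 3 times that average is the summed reads of a group. From these sums a ratio of SNI to sham was taken with an exact (Clopper-Pearson) 95% interval. Such an interval covers counting error only, and not the spread between libraries. Average read counts summed to 18.59 M over all genes in sham and 18.591 M in SNI. In bulk ganglia, more dividing cells and more of these transcripts in each cell cannot be told apart.

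Most of the 34 genes averaged higher after nerve injury. The average was higher in SNI for 30 genes and lower for 4, beside 53.1% of all genes with a higher average. The median ratio of the averages was 1.42, and on the log2(TPM + 1) scale the median was 0.41, against 0.02 over all genes. Averages were at least 2-fold higher in SNI for 11 of the 34, where 7.66% of all genes were, and at least 1.5-fold higher for 16, where 13.8% of all genes were. No member averaged at least 1.5-fold lower, against 7.42% of all genes. The authors' list of higher genes held 9 of the 34 and 3.63% of all genes, and their list of lower genes held 0 of the 34 and 0.695% of all genes. The interval of the read ratio lay above 1 for 25 genes, below 1 for 1 (Mcm7) and around 1 for 8. Over all genes such intervals lay above 1 for 31.7% and below 1 for 23.3%. The sum over all members was 181 TPM in sham against 238 TPM in SNI, a ratio of 1.31.

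**Figure D1:**
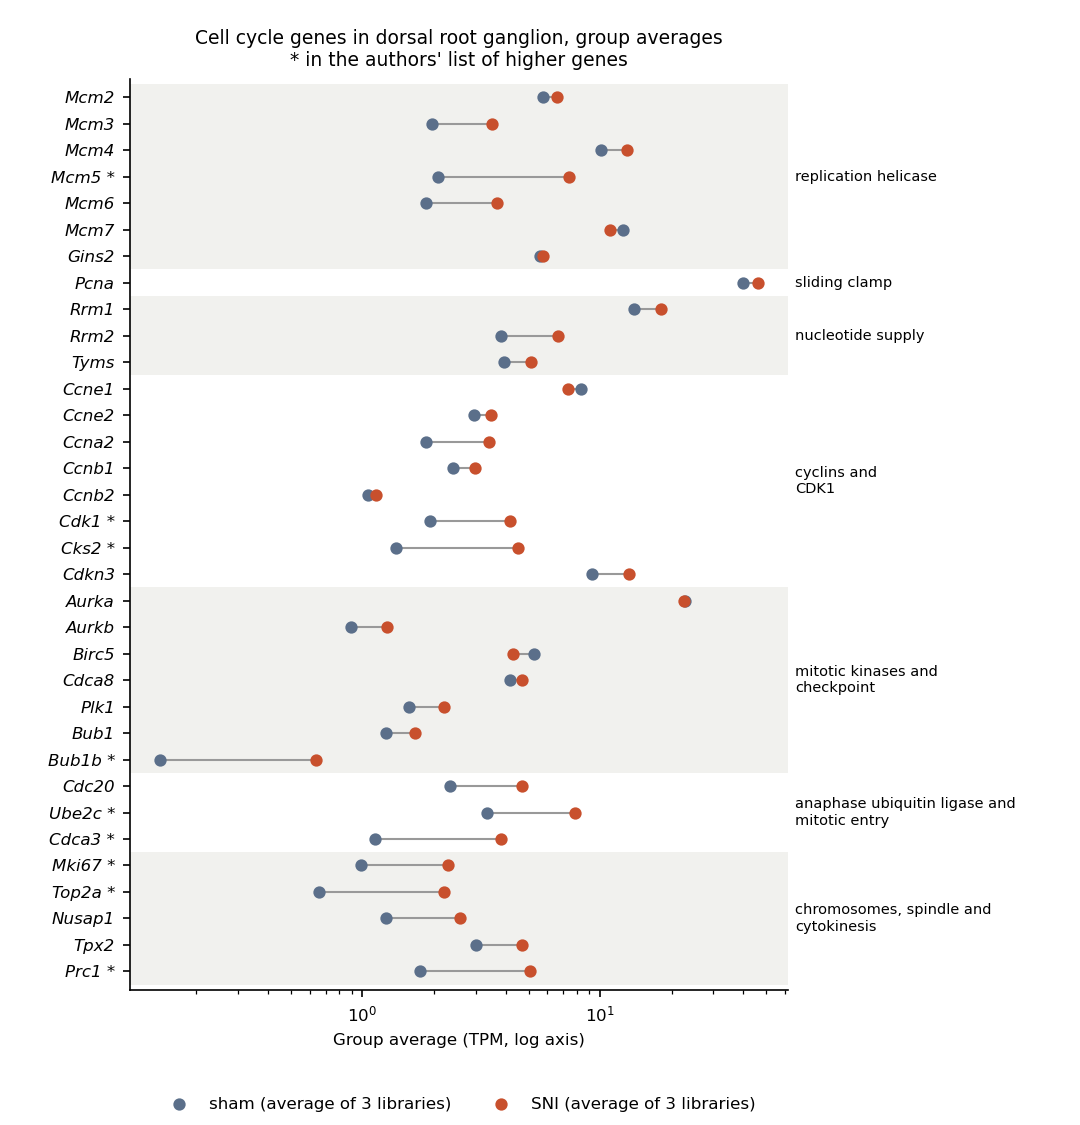
Group averages of the 34 genes in TPM on a log axis, with sham and SNI joined by a line and genes ordered by role. The longest lines belong to genes with low sham averages, such as Bub1b (0.140 and 0.640 TPM) and Top2a (0.657 and 2.21 TPM), while the points of Pcna (39.9 and 46.4 TPM) and Aurka (22.9 and 22.5 TPM) lie close together.

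The larger ratios sat among the scarcer transcripts. The split at 5 TPM used here was chosen after seeing the data. Of the 23 members with a mean of the averages under 5 TPM and at least 10 reads, 22 averaged higher in SNI and 10 did so at least 2-fold. Among all 4285 genes of that level 59.5% averaged higher and 12.7% at least 2-fold. Of the 11 members of at least 5 TPM, 8 averaged higher and 1, Ube2c, at least 2-fold, against 51% and 2.45% of all 11569 genes at that level. The authors' higher list held 8 of the 23 scarcer members and 9.03% of all genes of their level. Across the 34 genes, the log2 ratio and the log2 mean level had a Spearman rho of −0.50 (Pearson r = −0.50), and across all genes with at least 10 reads the rho was −0.15. These are correlations across genes of the same libraries, which share depth and are not independent, and the counting error of a ratio is largest for scarce genes.

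**Figure D2:**
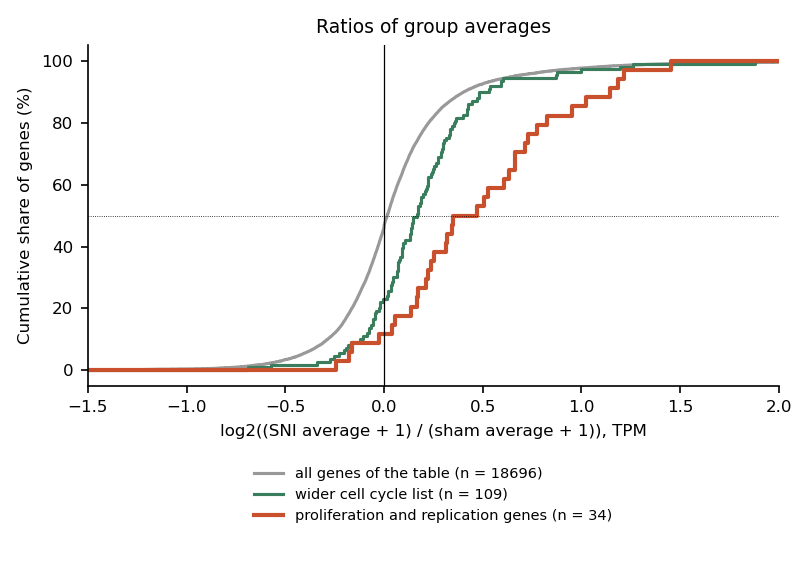
Cumulative share of genes (%) against the log2 ratio of the group averages with a pseudocount of 1 TPM, for the 34 genes, the wider cell cycle list and all genes. The curve of the 34 genes crosses 50% near 0.41, that of the wider list at 0.17 and that of all genes at 0.02.

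The DNA before the start of these genes is shown because dividing cells switch them on in concert, through a small set of short elements. RefSeq promoter windows (GRCr8 build, from 250 bases before the annotated start to 50 after it) were matched for 27 of the 34 genes, and Mcm4, Rrm2, Ccne2, Ccna2, Aurkb, Ube2c and Tpx2 were not matched. They were searched on both strands for the CHR element TTTGAA, which the DREAM and B-MYB complexes bind in genes of late cell cycle, for E2F sites (TTTCCCGC, TTTCGCGC, TTTGCCGC or TTTGGCGC) and for the CCAAT box, bound by NF-Y. The letters of these motifs can overlap in a window, as where TTTGAA runs into the reverse of a CCAAT box. The 150 bases before the start are printed 5′ to 3′ on the strand of the gene, with each match on either strand in capitals. The first 6 are genes of the authors' higher list and the last, Aurka, is an abundant member with nearly equal averages. Whether transcripts of these ganglia begin at the annotated starts was not tested. A window without motifs, such as that of Aurka, may therefore not be the promoter in use. They are examples and do not stand for all members. The windows of Ccnb2 and Mcm7, in neither list, held 5 matches each, and that of Bub1b, in the higher list, held 1.
Mcm5 promoter (chr19:13488663-13488812, plus strand): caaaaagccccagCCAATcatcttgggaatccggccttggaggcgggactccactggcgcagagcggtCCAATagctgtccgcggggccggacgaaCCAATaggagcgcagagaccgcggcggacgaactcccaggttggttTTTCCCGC
Cdk1 promoter (chr20:19265143-19265292, plus strand): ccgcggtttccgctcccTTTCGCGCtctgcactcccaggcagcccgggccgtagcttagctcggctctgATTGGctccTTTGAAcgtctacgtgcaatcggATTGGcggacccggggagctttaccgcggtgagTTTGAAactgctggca
Cks2 promoter (chr17:13727520-13727669, minus strand): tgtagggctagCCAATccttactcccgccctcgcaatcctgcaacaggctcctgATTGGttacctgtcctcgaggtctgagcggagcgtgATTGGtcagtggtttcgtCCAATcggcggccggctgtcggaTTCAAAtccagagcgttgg
Top2a promoter (chr10:84473094-84473243, minus strand): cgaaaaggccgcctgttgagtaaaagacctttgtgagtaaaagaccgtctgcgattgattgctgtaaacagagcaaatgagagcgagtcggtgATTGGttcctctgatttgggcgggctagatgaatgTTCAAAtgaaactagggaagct
Prc1 promoter (chr1:143659331-143659480, plus strand): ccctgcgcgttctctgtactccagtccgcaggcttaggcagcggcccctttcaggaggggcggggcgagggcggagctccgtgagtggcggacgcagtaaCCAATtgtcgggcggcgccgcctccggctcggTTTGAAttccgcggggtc
Mki67 promoter (chr1:199952594-199952743, minus strand): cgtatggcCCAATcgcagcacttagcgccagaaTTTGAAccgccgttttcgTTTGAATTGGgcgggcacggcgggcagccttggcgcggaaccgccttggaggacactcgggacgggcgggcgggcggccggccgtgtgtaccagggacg
Aurka promoter (chr3:181560770-181560919, minus strand): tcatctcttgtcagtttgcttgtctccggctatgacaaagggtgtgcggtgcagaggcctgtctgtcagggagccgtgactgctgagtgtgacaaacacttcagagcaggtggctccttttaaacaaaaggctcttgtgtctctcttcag
The CHR element was found in the windows of 14 of the 27 genes and in 14.2% of the 14079 genes of the group-average table with a window. A CCAAT box was found in 21 of 27 and in 38.9% of all, and an E2F site in 7 of 27 and in 3.59% of all. The 7 genes with an E2F site were those of the MCM subunits Mcm2, Mcm3, Mcm5, Mcm6 and Mcm7, and Cdk1 and Tyms. Both a CHR element and a CCAAT box were present in 12 of 27 windows against 6.24% of all. Of the 8 windowed genes in the authors' higher list, 6 held a CHR element and 7 a CCAAT box, and of the 19 windowed genes in neither list 8 and 14 did. The windows of 3 genes, Aurka among them, held none of these motifs. Over the 522 windowed genes of the whole higher list the shares were 18.8% for CHR and 2.49% for E2F. A match is a description of letters in a window and not evidence of binding.

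The 6 subunits of the MCM helicase form 1 ring with 1 copy of each, and their transcripts stood at unequal levels. In sham, Mcm7 averaged 12.5 TPM and Mcm4 10.04 TPM, Mcm2 5.74 TPM, and Mcm5, Mcm3 and Mcm6 2.07, 1.96 and 1.85 TPM. In SNI, Mcm4 averaged 13.02 TPM, Mcm7 10.97 TPM, Mcm5 7.40 TPM, Mcm2 6.57 TPM, Mcm6 3.69 TPM and Mcm3 3.50 TPM. The averages of the 6 thus spanned a narrower range in SNI than in sham. Mcm5 (Gene ID 291885) was the 1 subunit in the authors' higher list, and its summed reads were 166 in sham and 622 in SNI, a ratio of 3.75 (95% interval 3.15 to 4.47). The read ratios of Mcm6 and Mcm3 were 2.01 (1.64 to 2.46) and 1.81 (1.48 to 2.21), those of Mcm4 and Mcm2 1.30 and 1.15. Mcm7 had a read ratio of 0.879 (0.794 to 0.973), the only member with an interval below 1. Gins2, a subunit of the GINS complex that activates the helicase, averaged 5.59 TPM in sham against 5.77 TPM in SNI, with an interval of 0.932 to 1.16.

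Pcna, the sliding clamp, was the most abundant of the 34, at 39.9 TPM in sham against 46.4 TPM in SNI. Its read ratio was 1.17 (1.08 to 1.27). Rrm1, the large subunit of ribonucleotide reductase, averaged 13.9 and 18.0 TPM. Rrm2, the small subunit whose level follows S phase, averaged 3.83 and 6.66 TPM, with a read ratio of 1.75 (1.50 to 2.05). Tyms, thymidylate synthase, averaged 3.95 and 5.14 TPM, with a read ratio of 1.29 (1.04 to 1.60). All 4 intervals lay above 1, and none of these genes was in the authors' lists.

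The E cyclins of the G1 to S transition stood at 8.29 TPM in sham against 7.29 TPM in SNI (Ccne1) and at 2.96 and 3.47 TPM (Ccne2), and the intervals of both read ratios included 1. Ccna2, the cyclin of S and G2, averaged 1.84 and 3.41 TPM. Its TPM ratio was 1.85 and its read ratio 1.62 (1.31 to 2.00). The B cyclins of mitosis averaged 2.40 and 2.97 TPM (Ccnb1) and 1.06 and 1.14 TPM (Ccnb2). Ccnb2 rests on 42 and 46 summed reads, and its interval of 0.705 to 1.70 holds both a lower and a higher level. Cdk1 (Gene ID 54237), the kinase that these cyclins activate, averaged 1.92 and 4.18 TPM, on 61 and 134 summed reads (ratio 2.20, interval 1.61 to 3.02). Cks2 (Gene ID 498709), a small subunit of CDK complexes, averaged 1.38 and 4.53 TPM on 22 and 73 summed reads, and its interval ran from 2.04 to 5.61. Both were in the authors' higher list. Cdkn3, a phosphatase that acts on CDKs, averaged 9.26 and 13.2 TPM and was in neither of the authors' lists.

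Aurka, the Aurora kinase of the spindle poles, was the second most abundant member and stood at 22.9 TPM in sham against 22.5 TPM in SNI, with a read ratio of 0.991 (0.913 to 1.08). The chromosomal passenger complex joins Aurkb to Birc5 (survivin) and Cdca8 (borealin). Birc5 averaged 5.29 and 4.31 TPM and Cdca8 4.16 and 4.69 TPM, and the read ratio intervals of all 3 passenger genes included 1. Plk1, the Polo kinase, averaged 1.56 and 2.20 TPM, and the checkpoint kinase Bub1 1.26 and 1.66 TPM. Bub1b (Gene ID 171576), which encodes the checkpoint protein BubR1, was the scarcest member at 0.140 TPM in sham against 0.640 TPM in SNI. Its ratio of averages, 4.57, was the highest of the 34, on 16 and 76 summed reads (interval 2.75 to 8.73), and it was in the authors' higher list.

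Cdc20, the activator of the anaphase ubiquitin ligase, averaged 2.33 TPM in sham against 4.70 TPM in SNI. Ube2c (Gene ID 296368), the ubiquitin-conjugating enzyme of that ligase, averaged 3.34 and 7.83 TPM, with a read ratio of 2.36 (1.76 to 3.19). Cdca3 (Gene ID 297594), an adaptor for the breakdown of the mitotic inhibitor Wee1, averaged 1.13 and 3.85 TPM (read ratio 3.32, interval 2.35 to 4.76). Ube2c and Cdca3 were in the authors' higher list and Cdc20 was not, although its ratio of averages was 2.02. Nusap1 also lay outside that list at a ratio of 2.05. Of all 1433 genes with a ratio of at least 2, the list left out 761, and it held 6 genes with a ratio under 2, down to 1.80.

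All 5 genes of chromosomes, spindle and cytokinesis had read ratio intervals above 1. Mki67 (Gene ID 291234), which coats mitotic chromosomes and is the usual stain for dividing cells, averaged 0.983 TPM in sham against 2.29 TPM in SNI on 275 and 647 summed reads, with a ratio of 2.36 (2.04 to 2.72). Top2a (Gene ID 360243), the topoisomerase that untangles replicated DNA, averaged 0.657 and 2.21 TPM, with a ratio of 3.40 (2.68 to 4.36). Prc1 (Gene ID 308761), which bundles the midzone microtubules of the dividing cell, averaged 1.75 and 5.08 TPM, with a ratio of 3.14 (2.57 to 3.85). These 3 were in the authors' higher list. Nusap1 and Tpx2, both spindle assembly proteins, averaged 1.26 and 2.58 TPM and 3.00 and 4.68 TPM and were in neither of the authors' lists. The 11 genes of replication and nucleotide supply had a median ratio of averages of 1.30 with 1 in the authors' higher list, and the 23 cyclin and mitosis genes a median of 1.56 with 8 in it. The difference between these sets was not tested. Their median sham averages were 5.59 and 1.84 TPM, and scarcer members had the larger ratios, so role and level cannot be told apart here.

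**Figure D3:**
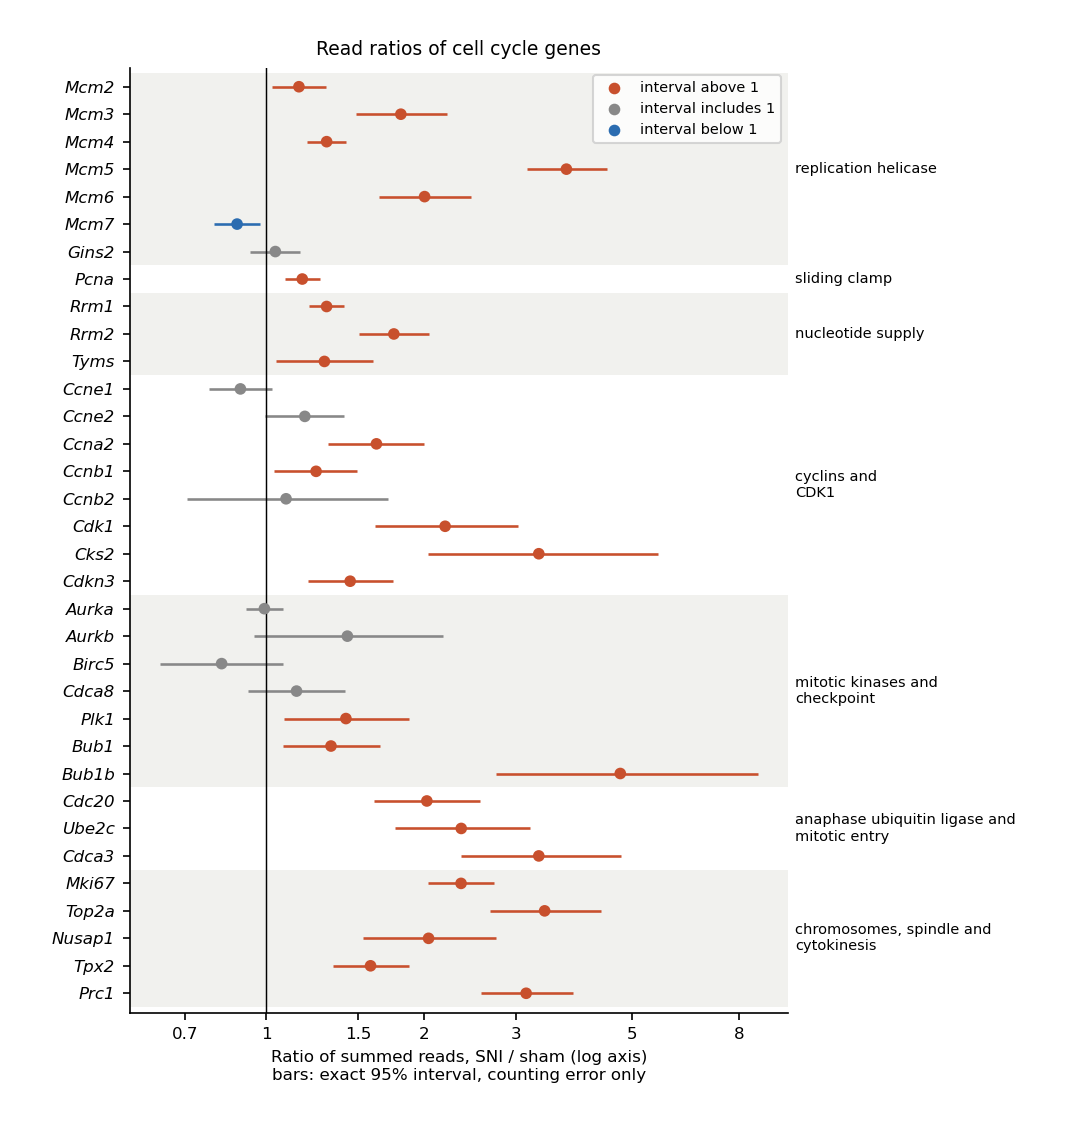
Ratio of summed reads, SNI to sham, on a log axis for the 34 genes, with exact 95% intervals for counting error only. Mcm5, Bub1b, Top2a, Cdca3, Cks2 and Prc1 lie above 3, Aurka lies at 0.991, and Mcm7 (0.879) has the only interval below 1.

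Some of these values rest on few reads or on sums that are not whole. Summed reads in sham were under 30 for Bub1b and Cks2, at 16 and 22. The sums were whole numbers, within 0.01 reads, for 27 of the 34 genes. For Gins2, Tyms, Ccna2, Ccnb1, Ccnb2, Aurka and Mki67 they were not, and how their reads were counted is not given in the sources used here, so their values are reported as less certain.

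Aurkb (Gene ID 114592) was the member with a value in each library. It stood at 0.95, 0.94 and 0.80 TPM in the sham libraries and at 1.31, 1.31 and 1.17 TPM in the SNI libraries. Every SNI library was higher than every sham library. Of the 1596 genes tested, 35.3% had groups apart in that direction and 31.3% in the other. The means were 0.897 ± 0.0839 TPM in sham and 1.26 ± 0.0808 TPM in SNI (SD, n = 3 each). The log2 fold change was 0.26 with SE 0.12 and did not pass (limma, Benjamini-Hochberg adjusted p = 0.098 over 1596 genes), where 32% of the genes tested were called higher and 29.2% lower. An exact two-sided permutation test gave p = 0.1, the smallest that 3 against 3 libraries allow. So 0 of the 1 member tested with limma passed, and 0 had an unadjusted p under 0.05. The adjusted p was 0.019 with no filter on low values and 0.0052 without the intensity trend in limma, and after quantile normalization the log2 fold change was −0.17 (adjusted p = 0.22).

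The spread between libraries that the 33 other members could have had is not given by their averages. In the per-library table, genes of 2 to 10 TPM, the range that holds 20 of the 34 members, had a median coefficient of variation of 9.76% in sham and 7.12% in SNI (242 genes). Genes of 0.5 to 2 TPM had medians of 22% and 16.7% (48 genes). Among genes with a mean at least 2-fold higher in SNI, the libraries of the groups did not overlap for 48 of 49 at 2 to 10 TPM. At 0.5 to 2 TPM this held for 14 of 16. These genes were picked for a 2-fold difference of means, which at such a spread leaves little room for overlap. The counts therefore say nothing about the members. Over all 1596 genes tested, groups were apart in that direction for 35.3%. The per-library table is a selection made by the authors by a rule not given in the sources used here, so its spread need not be that of the members. The 6 libraries resembled each other closely, with correlations of log2(TPM + 1) of 0.994 to 0.996 within groups and 0.95 to 0.96 between groups over its genes, and no library stood apart.

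A wider list of 111 other cell cycle genes was matched for 109. Of these, 84 averaged higher in SNI and 25 lower, with a median log2 ratio of 0.17, and the authors listed 7 as higher and 0 as lower. Of all genes, 53.1% averaged higher, and the authors listed 3.63% as higher and 0.695% as lower. Averages were at least 1.5-fold higher for 26 of 109, beside 13.8% of all genes, and at least 2-fold higher for 12, beside 7.66%. By this 2-fold count alone the wider list lies near the background of all genes. The 2-fold share was 12.7% of genes under 5 TPM with at least 10 reads and 2.45% of genes at 5 TPM or more. The wider list holds genes of both levels and was not split by level. Kinetochore, spindle and checkpoint genes averaged higher for 19 of 21, with 3 in the authors' higher list. These were Cenpf, a kinetochore protein of G2 and mitosis (0.117 and 0.410 TPM), the microtubule depolymerase Kif2c (0.420 and 1.16 TPM) and the chromosome motor Kif22 (4.57 and 11.8 TPM). Genes of condensation, cohesion and separation averaged higher for 10 of 11, with none listed and the highest average for Incenp, the scaffold of the passenger complex, at 24.1 and 23.4 TPM. Cytokinesis genes averaged higher for 8 of 10, and the most abundant, Racgap1, averaged 13.4 and 8.70 TPM.

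Every group of the wider list, and not those of replication alone, had a lower median log2 ratio than the 0.41 of the 34 genes. The highest was 0.29, for kinetochore, spindle and checkpoint genes. Among the 34, the 11 genes of replication and nucleotide supply had a median of 0.34. These differences were not tested. Replication fork genes averaged higher for 10 of 16, with a median log2 ratio of 0.07 and none in the authors' lists. Origin licensing and firing genes averaged higher for 12 of 15, with a median of 0.09 and the highest average for Orc2, a subunit of the origin recognition complex, at 22.2 and 25.4 TPM. The median ratio of averages of these licensing genes was 1.14, near the 1.18 of the wider list. In nucleotide supply, 3 of 5 averaged higher, with 1 in the authors' higher list, a median log2 ratio of 0.09 and sums of 111 and 153 TPM. Of the cell cycle transcription factors 7 of 9 averaged higher, with a median of 0.08 and none listed, and the most abundant, Tfdp1, averaged 19.3 and 20.8 TPM.

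Genes that start or hold the cycle differed in both directions. Of the cyclins, CDKs and phosphatases 10 of 13 averaged higher, and the authors' higher list held Ccnd2, a D cyclin of G1 (3.48 and 7.18 TPM), and Ccnf, an F-box cyclin (1.70 and 4.40 TPM). Of the CDK inhibitors and pocket proteins 5 of 9 averaged higher. Cdkn1a, the p53 target p21 that blocks CDKs, stood at 13.2, 9.93 and 11.9 TPM in the sham libraries and at 45.0, 47.4 and 44.1 TPM in the SNI libraries. It rose by 1.88 on the log2 scale (SE 0.09, limma adjusted p = 2.1e-07), with all SNI libraries above all sham libraries, and was in the authors' higher list. Cdkn1c, the inhibitor p57 of resting cells, stood at 9.40, 8.60 and 10.12 TPM in sham and at 5.77, 5.34 and 5.16 TPM in SNI. It fell by 0.69 on the log2 scale (SE 0.08, limma adjusted p = 8.9e-05). So the level of Cdkn1a was higher and that of Cdkn1c lower in every SNI library. Of the genes tested, 35.3% had groups apart in the first direction and 31.3% in the second.

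The 3 other cell cycle genes with values per library were also called higher, in a table where 32% of all genes tested were. Kif22 stood at 4.27, 4.74 and 4.71 TPM in sham and at 11.9, 11.2 and 12.2 TPM in SNI (log2 fold change 1.20, SE 0.08, limma adjusted p = 1.3e-06). Cdk4, the kinase of the D cyclins, stood at 84.9, 91.4 and 88.0 TPM and at 112, 111 and 109 TPM (log2 fold change 0.33, limma adjusted p = 0.00026). Prim1, the primase subunit, stood at 45.5, 43.9 and 42.8 TPM and at 50.9, 48.9 and 49.8 TPM (log2 fold change 0.17, limma adjusted p = 0.013). The groups did not overlap for any of them, which held in that direction for 35.3% of the genes tested. The call on Prim1 was lost without sham replicate 3 (limma adjusted p = 0.053) or SNI replicate 1 (limma adjusted p = 0.061).

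**Figure D4:**
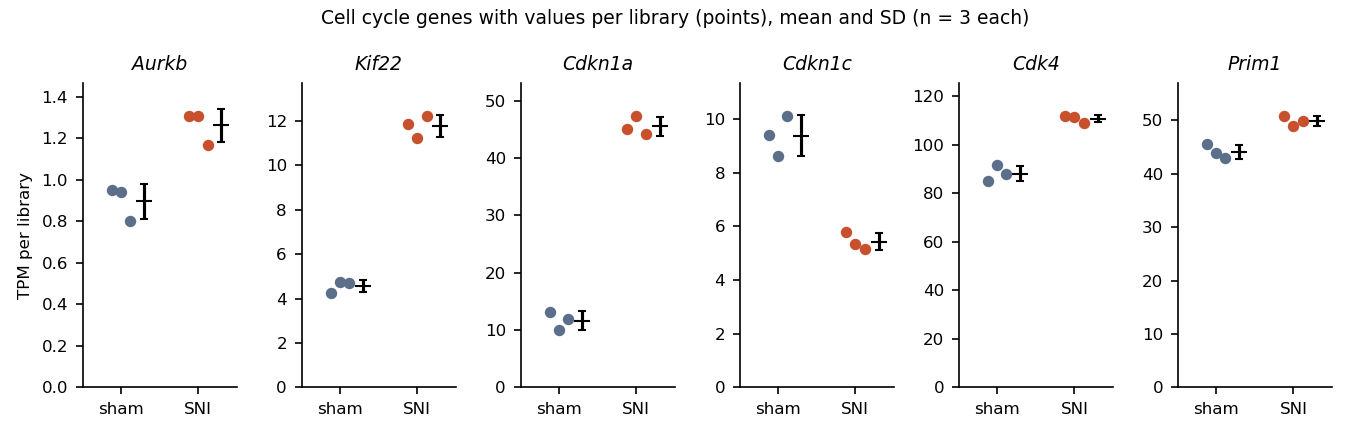
TPM in each of the 3 sham and 3 SNI libraries (points) with mean and SD for the cell cycle genes that have values per library, each panel on its own axis from 0. Cdkn1c is lower in all SNI libraries, and Aurkb, Kif22, Cdkn1a, Cdk4 and Prim1 are higher in all of them.

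Among the cell type marker lists, those of erythroid, macrophage and T and NK cells had the highest median log2 ratios, at 1.57, 1.20 and 0.55. For comparison, 53.1% of all genes averaged higher and the authors' higher list held 3.63% of them. In limma 32% of the genes tested were called higher and 29.2% lower. All 11 macrophage markers averaged higher, with 7 in the authors' higher list and a sum of 388 TPM in sham against 833 TPM in SNI. The 2 with values per library, Mrc1 and Cd163, did not pass in limma, with sums of 13.4 to 13.9 TPM over the sham libraries and 14.5 to 15.4 TPM over the SNI libraries. Of the 11 erythroid markers 9 were matched and all 9 averaged higher, with 7 in the higher list. The 7 with values per library were all called higher in limma, and their sum ranged from 231 to 252 TPM over the sham libraries and from 795 to 823 TPM over the SNI libraries. Klf1, the transcription factor of red cell precursors, averaged 2.01 and 3.60 TPM. All 8 T and NK cell markers averaged higher, with 2 in the higher list and sums of 11.4 and 25.1 TPM. The 2 with values per library, Cd3e and Cd8a, were both called higher in limma, with sums of 1.97 to 2.58 TPM in sham and 4.59 to 5.57 TPM in SNI.

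Other marker lists had smaller or opposite differences. Of 10 markers matched in the list named granulocyte precursor, 7 averaged higher and none was listed. Whether precursors or mature granulocytes carried these transcripts was not tested. Np4 and Defa5 were called higher in limma and Mpo did not pass, with sums of the 3 from 75.8 to 83.6 TPM over the sham libraries and from 102 to 115 TPM over the SNI libraries. The 3 with a lower average were Mpo, Elane and Prtn3, at 2.84, 2.66 and 3.13 TPM in sham against 2.67, 2.48 and 1.48 TPM in SNI, while Ctsg, which like them encodes a primary granule protein, averaged 2.87 and 3.19 TPM. The most abundant of the list, S100a9, averaged 160 and 262 TPM. The 4 B and plasma cell markers matched summed to 3.51 TPM in sham against 2.57 TPM in SNI. Satellite glial markers averaged higher for 4 of 6, with sums of 434 and 489 TPM. Schwann cell markers averaged lower for 6 of 8. The 3 with values per library were called lower in limma, among them Mbp (sham mean 1933 TPM, SNI mean 987 TPM) and Prx (225 and 131 TPM). Sensory neuron markers averaged lower for 6 of 8, with sums of 24070 and 22080 TPM, and they were abundant, as the labelled tissue implies. Endothelial and mural cell markers averaged higher for 4 of 6 and fibroblast markers for 2 of 6, with sums of 89.6 and 102 TPM and of 975 and 920 TPM. In limma the 1 neuron marker with values per library was called lower and the 1 endothelial and mural marker higher. Of 5 fibroblast markers 1 was called higher and 2 lower, and neither of 2 satellite glial markers passed. Of all genes tested, 32% were called higher and 29.2% lower. No marker matched was at 0 in either average. The part of any of these cell types in the averages of the 34 genes was not tested.

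**Figure D5:**
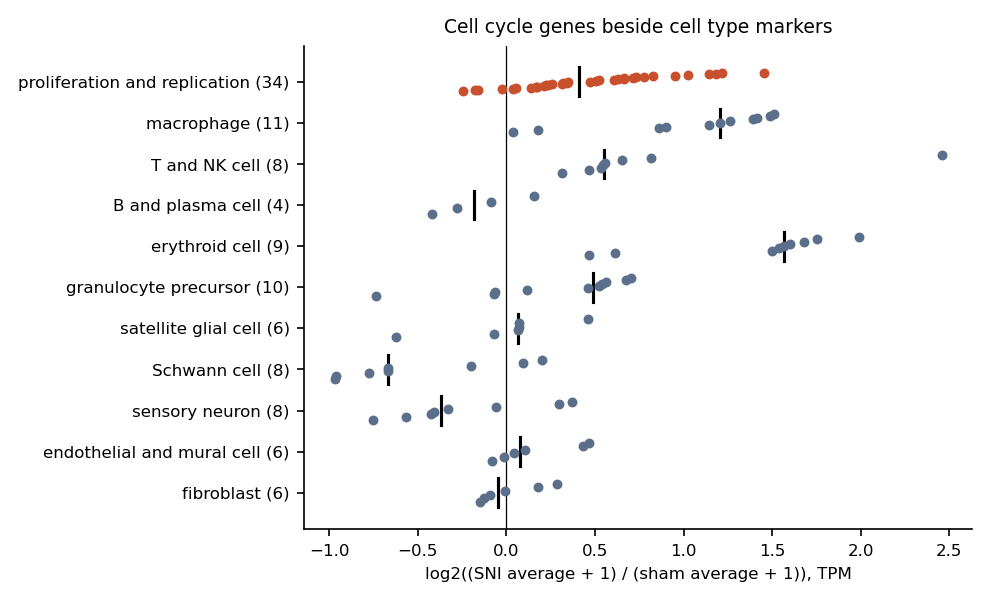
Log2 ratio of the group averages (pseudocount 1 TPM) for each of the 34 genes and for the matched members of each cell type marker list, with the number of genes in parentheses and the median as a bar. The medians are 0.41 for the 34 genes, 1.57 for erythroid, 1.20 for macrophage and 0.55 for T and NK cell markers, and −0.67 for Schwann cell and −0.37 for sensory neuron markers.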

How the data were processed

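Ganglion RNA of 3 SNI and 3 sham libraries had been sequenced. The deposited files hold, per the file headers, TPM of each library for a part of the genes, and for 18696 genes the TPM and the read counts averaged within groups by the authors (estimated counts, some not whole). They also hold the authors' 699 higher and 136 lower genes, 678 and 130 of them with averages. For aligner, counter, build, strand and the authors' test, the answer is: not given in the sources used here. Columns named control were taken as sham. The labels name 2 extraction and 2 library kits.

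The 1596 genes whose mean reached 1 TPM (41 left out) were compared on log2(TPM + 1) with limma 3.58.1 (R 4.3.3; intensity trend, group only, Benjamini-Hochberg adjustment over all genes, adjusted p under 0.05), tested on simulated data. Fold changes on that scale understate low genes. TPM keep no depth, and depth per library is unknown. Average reads times 3 gave ratios with exact 95% intervals (scipy 1.17.1). Python 3.11.15, pandas 2.3.3, numpy 2.4.6 and matplotlib 3.10.9 were used.

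All 34 members are named. From the wider list the genes named are those in the authors' lists or called by limma, and otherwise the most abundant of each group, apart from genes not reported here. The members and lists were chosen with earlier results of these data known. Alternatives were other pseudocounts, filters, quantile normalization, a replicate block, no trend, and leaving out each library.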

Additional observations from a re-analysis of the deposited data

How the results depend on the processing

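The count of 30 members with a higher SNI average was also 30 from read counts and with at least 10 reads in the larger group. It was 29 of 33 with at least 1 TPM in the larger group. By the split at 5 TPM, chosen after seeing the data, it was 8 of 11 at 5 TPM or more and 22 of 23 below. The median log2 ratio of 0.41 was 0.49 with a pseudocount of 0.1, 0.44 with 0.5 and 0.51 from read counts. Over the per-library table limma called 976 genes, 510 higher and 466 lower, and 402 higher and 608 lower after quantile normalization, so directions there depend on the scaling. Without 1 library the calls ranged from 834 to 983. Of the members, 1 (Aurkb) was called with no filter or without the intensity trend, against 0, and its log2 fold change was −0.17 after quantile normalization; the cause was not tested. Aurkb had no value at a mean of at least 5 TPM. With the replicate block 945 genes and 0 members were called. Deviations of libraries with the same number had correlations of −0.09, −0.06 and 0.19, and 2 of 6 libraries correlated best with their own number, so the numbers were not taken as pairs. The averages of 33 members allow no left-out library and no block.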
